A study of Mus musculus with 6 samples.

Results

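Aminoacyl-tRNA synthetases load each amino acid onto its tRNA, and the amino acid response is the transcriptional programme that cells switch on when charged tRNAs run short. In that response the kinase GCN2 phosphorylates the initiation factor eIF2, eIF2B can then no longer recycle it, general translation slows and the mRNA of the transcription factor ATF4 is translated more. ATF4 with a C/EBP partner is known to drive genes for amino acid synthesis and transport and many of the synthetase genes themselves. In skin these genes serve a tissue with a high demand for cysteine, glycine and glutamate in hair and cornified envelopes.

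The 40 genes described here were 20 cytosolic synthetase genes, the scaffold genes Aimp1 and Aimp2 and 18 response genes, out of 26579 genes in the count table. They were selected on the names of the pathway with results of this same contrast known, so the fold changes and FDRs of members are a description. RNA-Seq had been carried out on dorsal neck skin of 3 YAP2-5SA-∆C transgenic mice (TG) and 3 wildtype littermates (WT), all female and 33 days of age. The transgene drives a weakly activated form of YAP in the basal layer of the epidermis, where keratins 5 and 14 are made, and the TG mice were at the onset of their visible phenotype. No further genotype, agent or strain background is given for either group, and each library came from 1 mouse. Whole skin was sequenced, so fewer cells of a type and less RNA per cell cannot be told apart.

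Libraries held between 11225705 and 19505036 counts. Yap1 gave 130.8 ± 9.47 counts scaled to library size (CPM) in WT and 136.4 ± 7.32 CPM in TG (SD, n = 3). Whether transgene reads fall under Yap1 is not given in the sources used here, so this gene does not check the labels. Skin was identified by its keratinocyte markers, which summed to 3586 to 4350 CPM for basal and 6167 to 7946 CPM for suprabasal genes in WT. TG replicate 2 stood apart, since its 15 hair shaft and inner root sheath markers summed to 1540 CPM against 8056 and 10152 CPM in the other TG libraries and 15541 to 20851 CPM in WT. All 15 of these markers were lower in every TG library than in every WT library, as were 18.2% of all genes tested, and 0 of the 15 passed FDR 0.05 by the edgeR quasi-likelihood test described below (14 at an unadjusted p under 0.05). TG replicate 2 was the lowest library for 15 of 15, and 0 of them were at a count of 0 throughout.

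The sequences below show where the word TGATGNAA, the core of the C/EBP-ATF response element that ATF4 is known to bind, lies in the promoters of members. Windows ran from 250 bases before to 50 bases after the RefSeq start (GRCm38.p6), both strands were searched, and 31 of the 40 members matched an entry. Each sequence is 30 bases in the direction of the gene, 5′ to 3′, with the word in capitals, and distances count from the first transcribed base as 0. They were chosen to show both orientations of the word, 3 synthetases, and the response genes Asns, Chac1 and Slc7a11.
Iars (chr13:49682126-49682155, plus strand, word starting at 7): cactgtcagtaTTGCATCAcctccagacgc
Tars (chr15:11399655-11399684, minus strand, word starting at -15): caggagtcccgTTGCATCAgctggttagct
Yars (chr4:129189895-129189924, plus strand, word starting at 3): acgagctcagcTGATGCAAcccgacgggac
Asns (chr6:7693214-7693243, minus strand, word starting at -23): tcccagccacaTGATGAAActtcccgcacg
Chac1 (chr2:119351038-119351067, plus strand, word starting at -193): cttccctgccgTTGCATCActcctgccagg
Slc7a11, upstream copy (chr3:50443661-50443690, minus strand, word starting at -66): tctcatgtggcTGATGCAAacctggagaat
Slc7a11, downstream copy (chr3:50443642-50443671, minus strand, word starting at -47): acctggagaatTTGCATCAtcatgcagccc

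The word stood in 9 of the 31 member promoters (29.0%), against 4.51% of the 27025 genes with a promoter entry. Gars and Trib3 were among the other holders. Among synthetases it stood in 5 of 13 windows (38.5%), and among response genes in 4 of 16 (25.0%). None of the 14 mitochondrial synthetase windows and none of the 11 unfolded protein response windows held it. The longer composite site TGATGCAAT, which contains the core word, stood in 2 of the 31, Iars among them, against 0.222% of all genes. The word GGAATG, which TEAD factors, the DNA-binding partners of YAP, are known to bind, stood in 2 of the 31 (6.45%), Dars among them, against 16.6% of all genes. The windows of Eprs and Psat1, the members with the lowest FDRs, held none of these letters, which says only that these words are not in these windows. Lars, Rars, Cars, Hars, Nars, Vars, Wars, Slc7a5 and Slc7a3 had no entry.

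Eprs, which encodes the enzyme that charges both glutamate and proline, was the member with the lowest FDR. The gene spans 185363044 to 185428360 on the plus strand of chromosome 1 (GRCm38). Its levels were 256.8, 288.4 and 265.7 CPM in the WT libraries and 156.6, 146.3 and 154.8 CPM in the TG libraries. The groups did not overlap, and the TG libraries lay within a narrow range. The mean fell from 270.3 ± 16.3 to 152.6 ± 5.49 CPM (SD, n = 3), a log2 fold change of -0.82 ± 0.07 (SE), with FDR = 0.0101 by the edgeR quasi-likelihood test.

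Psat1, which encodes phosphoserine aminotransferase of the serine pathway, moved the other way. It lies on the minus strand of chromosome 19, from 15904678 to 15947337. Its levels were 66.1, 61.8 and 58.1 CPM in WT and 90.7, 108.5 and 100.4 CPM in TG. Every TG library was above every WT library. The mean rose from 62.0 ± 3.98 to 99.9 ± 8.96 CPM (SD, n = 3), a log2 fold change of 0.69 ± 0.08 (SE), with FDR = 0.0300 by the same edgeR test.

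These were the 2 of 39 members tested that passed FDR 0.05 (5.13%), and across all 15102 genes tested 1.91% passed, 1.44% as higher and 0.464% as lower. The remaining member, Slc7a3, a cationic amino acid transporter gene, had 4 to 10 counts in each library and stayed below the filter of 1 CPM in 3 libraries. Of the 39, 11 were lower in every TG library than in every WT library (28.2%, against 18.2% of all genes) and 7 were higher (17.9%, against 15.5%). A total of 32 members lay within 0.35 of 0 on the log2 scale, and the share of all genes within that limit is not given here. The call for both genes was lost without WT replicate 2 (edgeR FDR = 0.1004 for Eprs and 0.177 for Psat1), without WT replicate 3 (0.0584 and 0.129) and without TG replicate 3 (0.0906 for both), fits in which edgeR called 0 genes in all. Without TG replicate 2, in contrast, edgeR called 816 of 14950 genes (5.46%) and 4 members, which adds Chac1 and Slc7a11, so a call gained in that fit stands beside a general rise in calls. Across the fits that left out 1 library the log2 fold change ran from -0.86 to -0.78 for Eprs and from 0.64 to 0.77 for Psat1.

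Other tests on the same counts drew other lines. The edgeR likelihood-ratio test called 6 members (15.4%, against 10.4% of all genes), adding Chac1, Psph, Slc7a11 and Trib3. DESeq2 called 4 (10.3%, against 10.5%), adding Psph and Slc3a2, and limma voom called the same 2 (5.13%, against 1.65%).

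**Figure D1:**
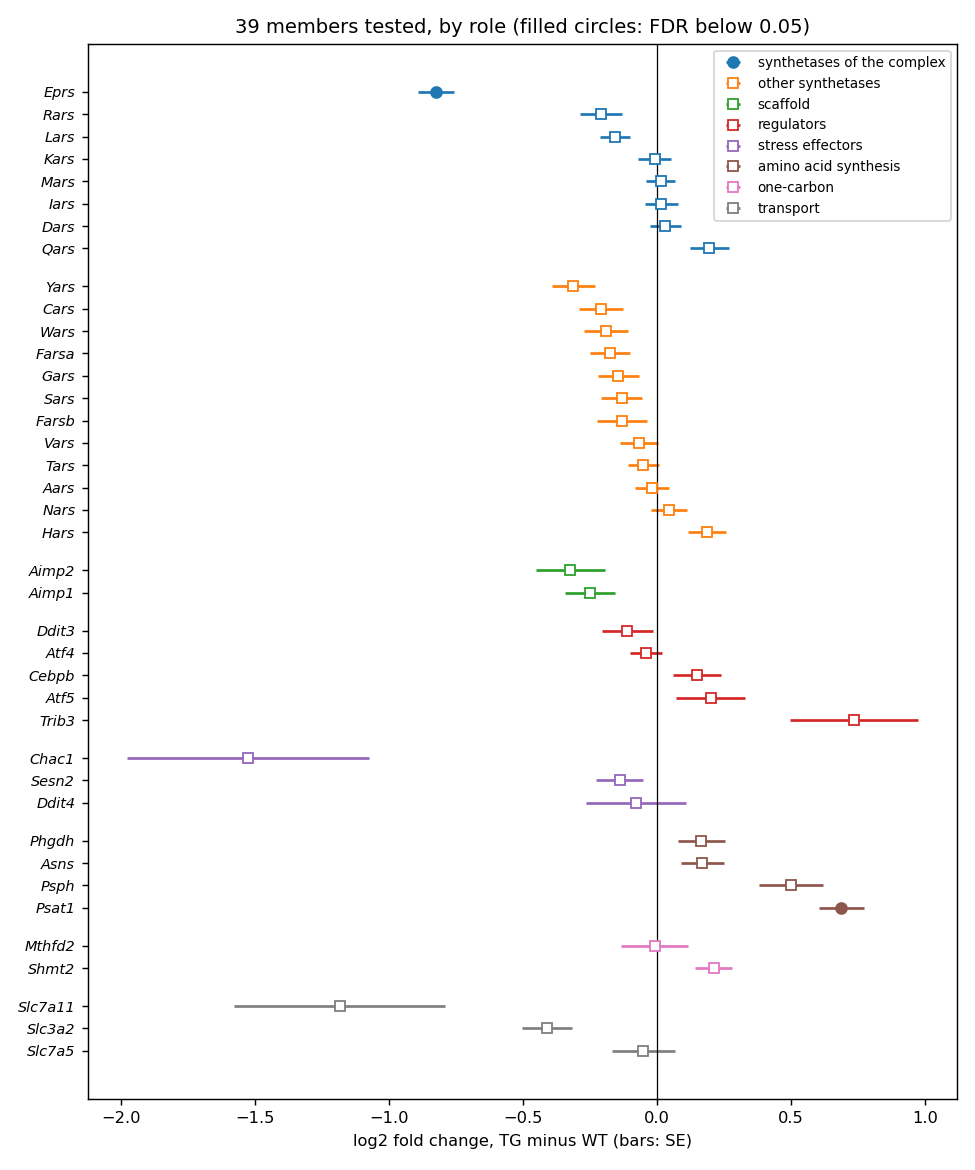
Log2 fold change of TG against WT for the 39 members tested (x axis, bars are SE from the edgeR fit on 3 WT and 3 TG libraries), grouped by role on the y axis, with filled circles at FDR below 0.05. Eprs at -0.82 and Psat1 at 0.69 are filled, Chac1 and Slc7a11 lie farthest to the left with wide bars, and most synthetases lie near 0.

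Among the synthetases of the multi-synthetase complex, in which several enzymes are held together by scaffold proteins, 4 of 8 were above 0 and 4 below, and Eprs was the 1 that passed. The other 7 ran from -0.21 for Rars to 0.19 for Qars on the log2 scale. Lars, at -0.16, and Rars, the enzymes for leucine and arginine, were lower in every TG library but did not pass (FDR = 0.134 and 0.152, edgeR). Qars, the enzyme for glutamine, was higher in every TG library and did not pass either (FDR = 0.146, edgeR). Mars, Iars, Kars and Dars, for methionine, isoleucine, lysine and aspartate, lay between -0.01 and 0.03.

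The 12 synthetases outside the complex had a median log2 fold change of -0.13, with 10 below 0 and 0 past FDR 0.05 (edgeR, with 4 at an unadjusted p under 0.05, as were 26.3% of all genes tested). Yars, for tyrosine, had the lowest FDR of them. Its levels were 47.4, 50.6 and 49.1 CPM in WT and 39.6, 35.8 and 43.0 CPM in TG. The TG libraries were all below the WT libraries, at a log2 fold change of -0.31 ± 0.08 (SE, FDR = 0.0743, edgeR). Wars and Farsa, for tryptophan and a subunit of the phenylalanine enzyme, were also lower in every TG library, and Hars, for histidine, was higher in every one, none of them past FDR 0.05. Hars shares 195 exonic bases with Hars2 on the opposite strand, and the strand setting of the counting is not stated, so some reads of the pair cannot be told apart.

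Over all 20 synthetases the median log2 fold change was -0.10, and without Eprs it was -0.07, against -0.01 for all genes tested. Without TG replicate 2 the median of the 20 was -0.05. The 9 class I enzymes had a median of -0.16 and the 10 class II enzymes one of -0.04. These classes are the unrelated folds of the catalytic domain, and Eprs carries both and was left out of each. The summed CPM of the 19 synthetases other than Eprs was 1341, 1397 and 1339 in WT and 1316, 1261 and 1337 in TG. Those sums differed little between groups, and every TG sum was below every WT sum. Without scaling for length, Eprs made up 16.6% ± 0.521 of the CPM of all 20 synthetases in WT and 10.5% ± 0.142 in TG (SD, n = 3).

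The scaffold genes were lower too, without passing. Aimp1 was at -0.25 ± 0.09 (SE, FDR = 0.149) and Aimp2 at -0.32 ± 0.13 (FDR = 0.169, edgeR), and both were lower in every TG library. Aimp2 shares 29.4% of its exonic bases with Eif2ak1 on the opposite strand.

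The plot of levels per length sets the synthetases against each other. In WT skin Gars, for glycine, was at 43.5 ± 2.51 CPM per kb of merged exons (SD, n = 3) and Rars at 35.3 ± 1.34, while Farsa was last at 7.30 ± 0.269. Of the 19 neighbouring pairs in this order, 10 had library ranges apart and 9 overlapped. Gars, Rars and Hars each stood clear of the next gene, whereas the run from Farsb through Kars, Lars, Dars and Qars to Eprs did not separate from neighbour to neighbour. Eprs ranked 11 of 20 in WT at 14.9 ± 0.899 CPM per kb and 16 of 20 in TG at 8.43 ± 0.303. Its merged exons, 18102 bases, are far longer than its longest transcript of 5638 bases, and per kb of the longest transcript it ranked 3 in WT and 8 in TG. Within WT the synthetases varied by 1.15% to 7.87% between libraries (SD over mean).

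**Figure D2:**
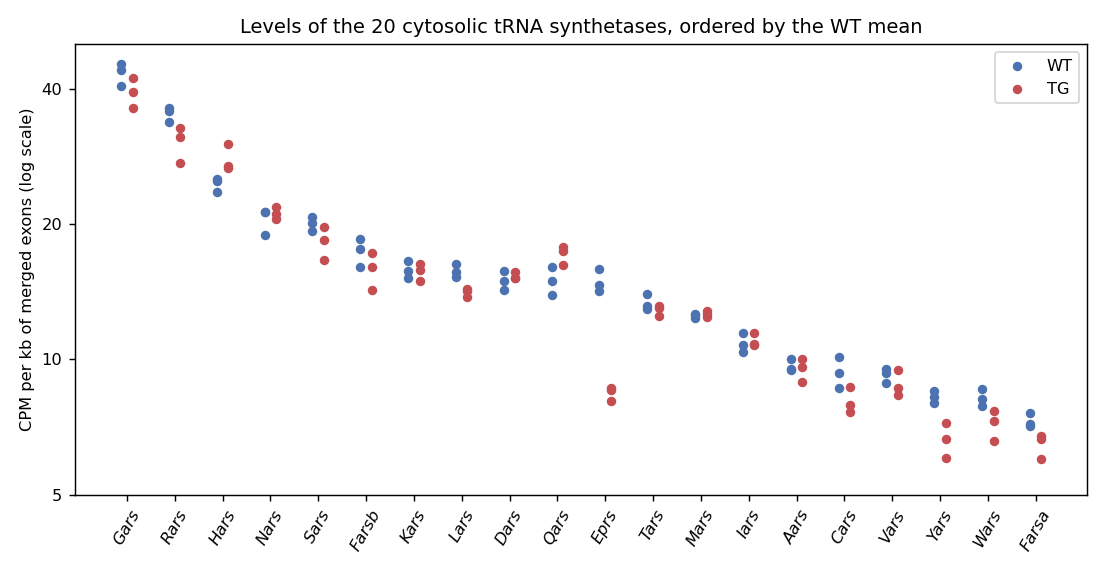
CPM per kb of merged exons (y axis, log scale) of the 20 cytosolic synthetases, 1 point per library, WT in blue and TG in red, ordered on the x axis by the WT mean. The 3 TG points of Eprs, at 8.08 to 8.65, lie far below its WT points at 14.2 to 15.9, while the points of most other genes lie close together.

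The regulators of the response were near 0 apart from Trib3. Atf4, the central factor, was at 120.1, 124.6 and 122.1 CPM in WT and 112.3, 118.4 and 125.2 CPM in TG. The groups overlapped, at a log2 fold change of -0.04 ± 0.06 (SE, FDR = 0.682, edgeR). ATF4 is controlled largely at translation, which mRNA counts do not measure. Ddit3, which encodes the stress factor CHOP, was at 10.005, 9.94 and 9.04 CPM in WT and 9.34, 8.88 and 8.61 CPM in TG, also overlapping (log2 fold change -0.11 ± 0.10, SE, FDR = 0.485, edgeR).

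Cebpb, a C/EBP partner of ATF4, was at 44.0, 41.7 and 42.3 CPM in WT and 41.3, 51.0 and 49.6 CPM in TG. TG replicate 1 was below WT, the other TG libraries above it (log2 fold change 0.15 ± 0.09, SE, FDR = 0.336, edgeR). Cebpb shares 20.7% of its exonic bases with Tmem189 on the opposite strand. Atf5, a related factor, was at 0.20 ± 0.13. Trib3, a pseudokinase gene that is a usual target of ATF4 and CHOP, was scarce at 1.43, 1.41 and 2.28 CPM in WT and 2.73, 2.41 and 3.18 CPM in TG. Every TG library was above every WT library, at 0.73 ± 0.24 (SE, FDR = 0.114, edgeR).

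The genes of serine and asparagine synthesis were all above 0. Serine is made from a glycolytic intermediate by the products of Phgdh, Psat1 and Psph in turn. Phgdh, the first step, was at 42.4, 37.6 and 45.8 CPM in WT and 44.7, 49.7 and 46.4 CPM in TG. The groups overlapped (log2 fold change 0.16 ± 0.09, SE, FDR = 0.279, edgeR).

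Psph, the last step, was at 21.7, 20.4 and 16.0 CPM in WT and 26.0, 27.7 and 28.4 CPM in TG. The groups did not overlap, and the log2 fold change was 0.50 ± 0.12 (SE, FDR = 0.0657, edgeR). Psph shares 10.4% of its exonic bases with Cct6a on the opposite strand. Shmt2, which moves a carbon unit from serine to folate in mitochondria, was at 31.4, 28.4 and 30.3 CPM in WT and 33.3, 35.7 and 35.2 CPM in TG, again apart (0.21 ± 0.07, SE, FDR = 0.117, edgeR). Mthfd2, the next enzyme of that folate pathway, was at -0.01 ± 0.12.

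Asns, which makes asparagine, was at 26.6, 27.4 and 24.3 CPM in WT and 29.5, 27.6 and 30.9 CPM in TG. The TG libraries lay just above the WT ones (0.17 ± 0.08, SE, FDR = 0.227, edgeR). Of the 5 serine and one-carbon genes, Psat1 alone passed in the quasi-likelihood test, 4 were above 0 and their median was 0.21. Basal keratinocyte markers were higher beside these genes, at 5890 to 7526 CPM summed in TG against 3586 to 4350 in WT, 4 of 7 of them in every TG library and 1 of 7 past FDR 0.05. Macrophage markers (8 of 8, with 2 past FDR 0.05) and sebaceous gland markers (5 of 6, with 0) were also higher in every TG library, as were 4 of 6 fibroblast markers (0 past FDR 0.05). Suprabasal keratinocyte markers summed to 8512 to 15429 CPM in TG against 6167 to 7946 in WT, with 2 of 6 higher in every TG library and 0 past FDR 0.05. Stress keratinocyte markers were mixed, with 4 of 7 higher in every TG library, 3 of them past FDR 0.05, and Krt17 lower in every one, and their sums overlapped, at 1219 to 1621 CPM in WT and 1340 to 2530 CPM in TG. Across all genes tested, 15.5% were higher in every TG library and 1.44% passed FDR 0.05 as higher (edgeR). The part of these markers in the serine genes was not tested.

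**Figure D3:**
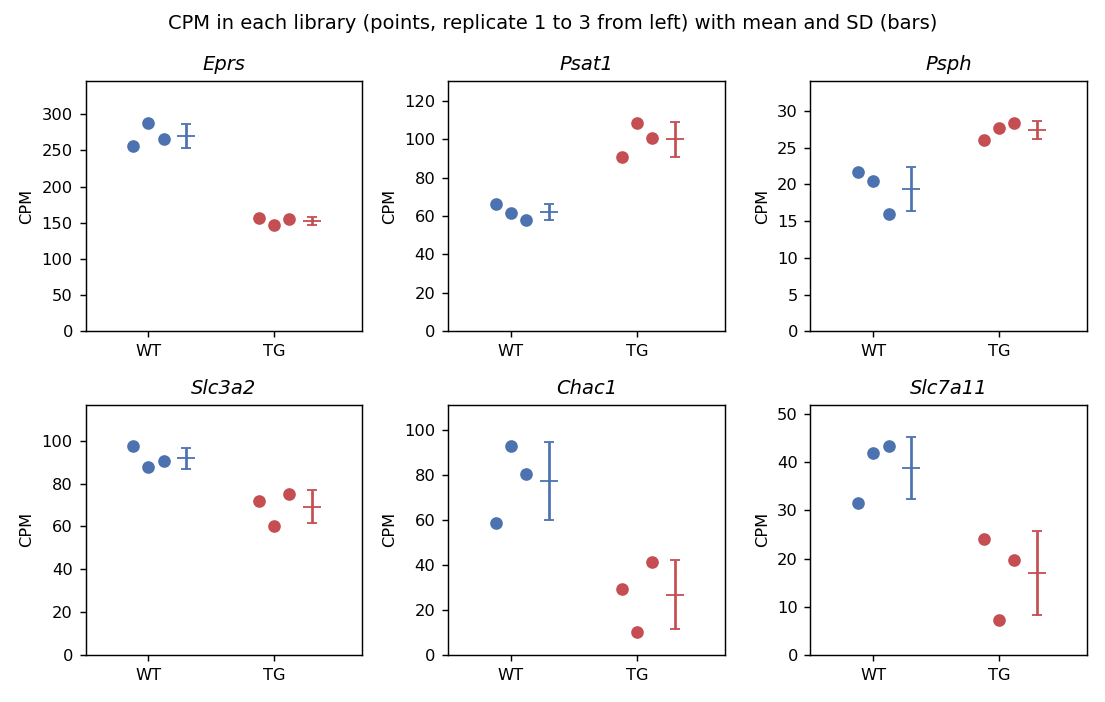
CPM in each library (y axis from 0) of Eprs, Psat1, Psph, Slc3a2, Chac1 and Slc7a11 in WT and TG skin, with the mean and SD of 3 libraries beside the points. Eprs and Slc3a2 are lower and Psat1 and Psph higher in all 3 TG libraries, and the middle TG point of Chac1 and Slc7a11 is TG replicate 2, the lowest.

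Slc3a2, the heavy chain that several amino acid transporters share, was at 97.4, 87.8 and 90.5 CPM in WT and 71.7, 60.4 and 75.3 CPM in TG. The groups did not overlap, and the log2 fold change was -0.41 ± 0.09 (SE, FDR = 0.0620, edgeR). Slc7a5, the light chain for large neutral amino acids, was at -0.05 ± 0.12 and overlapped. Slc7a11, the light chain that brings in cystine, is given in full although it fell outside the rule for named genes, and was chosen after its values were seen. It was at 31.4, 41.9 and 43.3 CPM in WT and 24.1, 7.30 and 19.8 CPM in TG. TG replicate 2 was the lowest, at a group log2 fold change of -1.19 ± 0.39 (SE, FDR = 0.121, edgeR). Without that library the difference was smaller, at -0.81, and passed in that fit with its 5.46% of genes called (edgeR FDR = 0.0392).

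Chac1, which encodes an enzyme that breaks down glutathione, had the largest log2 fold change in size of the members tested. Its levels were 58.9, 92.9 and 80.7 CPM in WT and 29.2, 10.4 and 41.2 CPM in TG. Every TG library was below every WT library, but the libraries of each group were spread widely, at -1.53 ± 0.45 (SE, FDR = 0.0942, edgeR). Without TG replicate 2 the difference was smaller, at -1.12, and passed in that fit with its 5.46% of genes called (edgeR FDR = 0.0381). The other stress effectors, Ddit4, an inhibitor of mTORC1 signalling, and Sesn2, a leucine sensor, were at -0.08 ± 0.18 and -0.14 ± 0.09 and overlapped between groups.

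Hair markers ran beside Chac1 and Slc7a11 in these libraries. As a share of the WT mean, the 15 hair markers summed to 43.5%, 8.31% and 54.8% in TG replicates 1 to 3, Chac1 to 37.7%, 13.4% and 53.2%, and Slc7a11 to 62.1%, 18.8% and 50.9%. TG replicate 2 was the lowest in all of them. TG replicate 2 was the lowest of the 6 libraries for 18 of the 39 members tested. The share of all genes for which it was the lowest is not given here, so this count cannot be read as a trait of the members. Eprs held 57.9%, 54.1% and 57.3% in the same libraries, a far smaller spread. Melanocyte markers were also lower, at 151 to 261 CPM summed in TG against 407 to 477 in WT. All 5 of 5 were lower in every TG library, as were 18.2% of all genes tested. Of these 5 markers, 2 passed FDR 0.05 (edgeR), where 0.464% of all genes passed as lower. The part of hair and pigment cells in the levels of these genes was not tested.

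**Figure D4:**
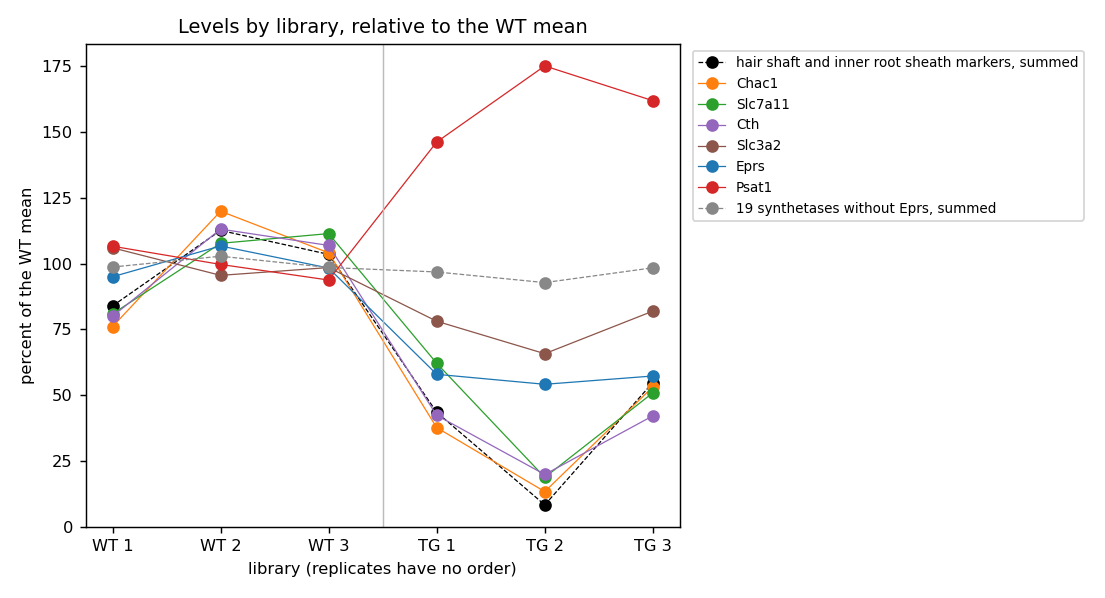
Level in each library as a percent of the WT mean (y axis) for 6 single genes, the summed hair markers and the summed 19 synthetases without Eprs, with lines joining the points of 1 item only to guide the eye. TG replicate 2 is the lowest library for the hair markers (8.31%), Chac1 (13.4%), Slc7a11 (18.8%) and Cth (19.9%), and also for Eprs (54.1%), Slc3a2 (65.8%) and the 19 synthetases, which stay between 92.8% and 98.4% in TG.

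Genes of the pathway outside the 40 were taken from 5 further lists, of which 74 genes were tested, and 2 passed FDR 0.05, both as lower, where 1.91% of all genes passed in either direction and 0.464% as lower. The list of eIF2 kinases, phosphatase subunits and eIF2B subunits held 14 genes, of which Eif2b3 passed. Eif2b3, a subunit of the exchange factor that recharges eIF2, was at 36.4, 41.7 and 39.2 CPM in WT and 23.5, 20.003 and 26.2 CPM in TG. The groups were well apart, with a log2 fold change of -0.75 ± 0.11 (SE, FDR = 0.0398, edgeR).

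All 5 eIF2B subunits were lower in every TG library, as were 18.2% of all genes tested, with log2 fold changes from -0.75 to -0.34 and a median of -0.51, and the other 4 had FDRs from 0.0505 for Eif2b5 to 0.0880 for Eif2b1 (edgeR). Eif2b5, the catalytic subunit, was at 88.2, 104.6 and 100.5 CPM in WT and 70.5, 53.6 and 66.7 CPM in TG, and was singled out after its values were seen. TG replicate 2 was the lowest TG library for all 5, as it was for the hair markers, and the part of that library's makeup was not tested. Without TG replicate 2, 8 of the 74 genes passed, where 5.46% of all genes did, Eif2b3, Eif2b4 and Eif2b5 among them, the last at -0.50 (FDR = 0.0295, edgeR). Eif2b3 lost its call without WT replicate 1, 2 or 3 and without TG replicate 1 or 3, at FDRs up to 0.178 and log2 fold changes from -0.84 to -0.70 (edgeR). The kinase gene of this response, Eif2ak4, which encodes GCN2, was at -0.04 ± 0.07 and overlapped.

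**Figure D5:**
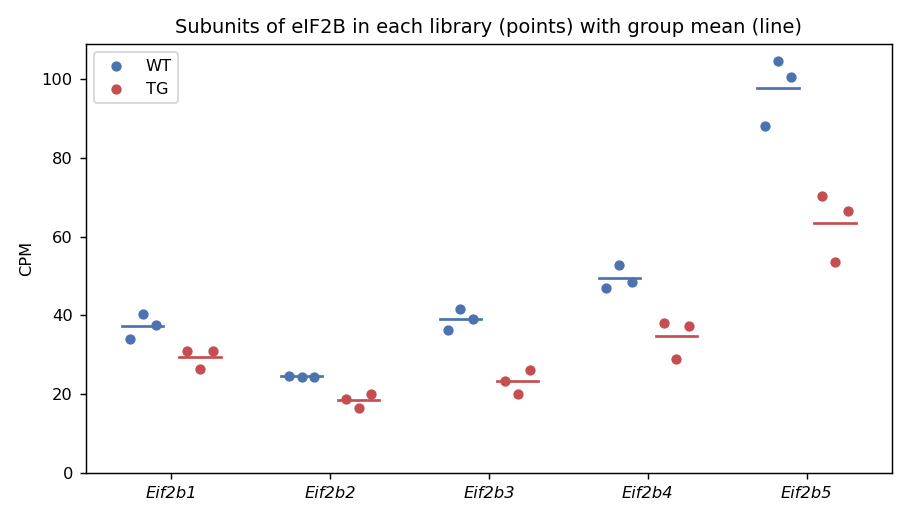
CPM (y axis from 0) of the 5 eIF2B subunit genes in each WT (blue) and TG (red) library, with a line at the group mean. All TG points lie below all WT points of the same gene, and Eif2b3 falls from a mean of 39.1 to 23.2 CPM.

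Of 24 further genes that ATF4 is known to drive, 13 were above 0, 11 below, and Slc1a4 passed. Slc1a4, a transporter of alanine, serine and cysteine, was at 22.2, 23.9 and 22.7 CPM in WT and 15.0, 11.9 and 11.6 CPM in TG. The groups did not overlap, with a log2 fold change of -0.84 ± 0.11 (SE, FDR = 0.0358, edgeR), and it lost its call without WT replicate 1, 2 or 3 or TG replicate 3. Its promoter window held the word TGATGNAA, one of 7 in 20 windows of this list (35.0%).

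Cth and Cbs, the enzymes that make cysteine from homocysteine, were at -1.52 ± 0.29 and -0.84 ± 0.17 and just missed the threshold (FDR = 0.0515 and 0.0548, edgeR). Cth was at 42.4%, 19.9% and 42.2% of its WT mean in the TG libraries, again lowest in TG replicate 2. Aldh1l2, a mitochondrial folate enzyme, was higher at 0.62 ± 0.12 (FDR = 0.0515, edgeR). It shares 14.1% of its exonic bases with D10Wsu102e on the opposite strand. Without TG replicate 2 all 3 passed, at -1.22 for Cth (FDR = 0.0160), -0.65 for Cbs (0.0205) and 0.64 for Aldh1l2 (0.0477, edgeR), in the fit that called 5.46% of all genes. These 3 were chosen after their values were seen.

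None of the 17 mitochondrial synthetases passed (edgeR, with 1 at an unadjusted p under 0.05), and their median log2 fold change was -0.13. Tars2, for threonine, had the lowest p, at 29.3, 31.3 and 30.4 CPM in WT and 25.8, 25.7 and 27.3 CPM in TG. It was lower in every TG library (-0.21 ± 0.07, SE, FDR = 0.109, edgeR). None of the 13 genes of the unfolded protein response passed (2 at an unadjusted p under 0.05), 10 were below 0 and their median was -0.07. Xbp1, a factor of that response and the gene with the lowest p, was at 120.5, 123.1 and 112.7 CPM in WT and 126.7, 142.4 and 146.1 CPM in TG (0.22 ± 0.07, SE, FDR = 0.121, edgeR). Xbp1 was higher in every TG library, and the other gene, Hspa5, a chaperone of the endoplasmic reticulum, was lower in every one (-0.35 ± 0.12, SE, FDR = 0.133, edgeR). None of the 6 elongation factor genes passed (1 at an unadjusted p under 0.05). Eef1g, a subunit of the factor that brings charged tRNA to the ribosome, was at 484.4, 542.7 and 501.9 CPM in WT and 443.9, 435.9 and 452.1 CPM in TG, lower in every TG library (-0.20 ± 0.07, SE, FDR = 0.123, edgeR).

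Around Eprs, 5 other genes were tested within 500 kb on chromosome 1. Their log2 fold changes ran from -0.53 for Mark1 to 0.17, and 0 of them passed (lowest FDR = 0.0774, edgeR). Bpnt1, the nearest of them, was at -0.15 ± 0.09, and Iars2, a mitochondrial synthetase gene next to it, at 0.05 ± 0.05. Around Psat1, 4 genes ran from -0.17 to 0.13, with 0 past FDR 0.05. This look at neighbours was added after the values of both genes were seen.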

How the data were processed

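The table that the authors deposited holds whole-number counts for each Ensembl gene in 6 libraries. Per the study's methods and the labels, reads were aligned with TopHat2 (2.0.12 in the submitters' processing notes, while the study's methods name an earlier release) and Bowtie2 2.1.0 to GRCm38 and uniquely mapped reads were counted with HTSeq. The annotation release and the strand setting are not given in the sources used here, and overlapping genes are therefore uncertain. Unique counting drops reads shared with pseudogenes or paralogs.

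Symbols, positions and exon lengths came from GENCODE M21 (26021 of 26579 IDs matched). Genes with at least 1 CPM in 3 libraries were kept (15102) and scaled by TMM, and WT and TG were compared with the edgeR 4.0.16 quasi-likelihood test in R 4.3.3 (two-sided, Benjamini-Hochberg over all genes tested, threshold 0.05). CPM are scaled by the same factors. The SE is the log2 fold change over the square root of F. The likelihood-ratio test, limma 3.58.1 voom and DESeq2 1.42.0 were alternatives, as were other size factors, no filter, the replicate number as a block and dropping 1 library at a time. The tests were tested on simulated data that had the same spread setting for every gene and no outlying library, unlike these counts. Library totals of 11225705 to 19505036 set the depth. The p-values weigh the difference between groups against the spread between libraries. Each library came from 1 mouse, so that spread does not separate mouse, biopsy and library.

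The members and all lists were chosen with earlier results of these data known. Values per library were given for members past FDR 0.05, the 4 higher and 4 lower members with the lowest p, Atf4, Ddit3, Cebpb, Trib3, Asns, Psat1, Phgdh and Psph, and from each other list for genes past FDR 0.05 or else the gene with the lowest p. 0 count columns were left unused. Levels are ranked between genes per kb only.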

Additional observations from a re-analysis of the deposited data

How the results depend on the processing

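With 3 mice a group, which calls are made depends on single libraries and on the test, while the sign of the 4 called genes named above held in every alternative. The count of members past FDR 0.05, 2 as reported, was 6 by the likelihood-ratio test, 4 by DESeq2 and between 0 and 4 when 1 library was left out. For the 5 other lists, 2 as reported, it was 7 with no filter, 9 by the likelihood-ratio test, 12 by DESeq2 (1.87%, 10.4% and 10.5% of all genes passed in these fits) and between 0 and 8 when 1 library was left out. The cause of these shifts was not tested. With the replicate number as a block, 0 members and 0 genes of the other lists passed and 0 genes in all (edgeR, with 2949 genes at an unadjusted p under 0.05). Deviations of same-numbered libraries correlated at -0.332, -0.228 and -0.05, and no sample correlated best with its own number. With 3 libraries a group, these values cannot show whether same-numbered mice were paired, which the sources used here do not state.

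The median of the response genes, -0.01, lay between -0.081 and 0.12 when 1 library was left out, with the highest value without TG replicate 1. It also lay just above 0 under other size factors, no filter and DESeq2. The median of the synthetases, -0.10, lay between -0.11 and -0.05, the latter without TG replicate 2. Atf4, at -0.04, lay between -0.081 and 0.015, turning above 0 without TG replicate 1. Of the other comparisons of single genes, 231 kept direction and side of the threshold, 19 lost the call and 25 gained it. Per kb of the longest transcript Eprs ranked 3 and not 11 in WT, since its merged exons include long stretches outside that transcript. The longer composite site stood in 6.45% of member promoters and the core word in 29.0%.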

Other observations

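Lars2, the mitochondrial leucine synthetase gene, differed between WT libraries by more than any other synthetase gene. It was at 15.3, 22.2 and 66.2 CPM in WT and 18.2, 19.5 and 14.0 CPM in TG. In the same WT replicate 3, a gene with no symbol in the annotation used here, ENSMUSG00000045999, held 5.27% of the library, compared with 0.0634% to 0.288% elsewhere. The log2 fold change of Lars2 was -0.995 ± 0.51 (SE, FDR = 0.261, edgeR), and -0.12 ± 0.21 without WT replicate 3 (FDR = 0.781).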
